A study of Mus musculus with 4 samples.

Results

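Aldo-keto reductases, aldehyde dehydrogenases, carboxylesterases and flavin-containing monooxygenases, enzyme families of carbonyl, ester and xenobiotic metabolism, were followed in Paneth cells. Paneth cells are secretory cells of the crypts of the small intestine and are filled with granules of antimicrobial proteins. Members were all genes whose array symbol begins with Akr1 or Akr7 (aldo-keto reductases), Aldh (aldehyde dehydrogenases), Ces1, Ces2 or Ces3 (carboxylesterases), or Fmo and a digit (flavin-containing monooxygenases). Aldh1a1, Aldh1a2 and Aldh18a1 were left out. This gave 47 genes of the 18193 that a probe set of the array names alone: 15 aldo-keto reductases, 17 aldehyde dehydrogenases, 11 carboxylesterases and 4 monooxygenases. Each gene was represented by the probe set whose mean over the 4 arrays was highest. The choice did not use the difference between the groups. Of the 47 members, 38 passed the filter on low signal and were tested.

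The study compared conventionalized mice, which had acquired gut microbes for 10 days before sampling, with germ-free mice, all of them 8-week-old NMRI males. Paneth cells were cut from frozen small intestine by laser, and the RNA of 3 mice was pooled in each group. The conventionalized pool and the germ-free pool were each amplified 2 times, and each amplification went onto 1 Affymetrix mouse array. The 2 arrays of a group are repeat amplifications of 1 pool, so a p-value here covers error of amplification and hybridization and no variation among mice. In pooled captured tissue, fewer cells of a type and less RNA per cell cannot be told apart.

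Aldo-keto reductases use NADPH or NADH to interconvert aldehydes or ketones and alcohols, and their Akr1c branch acts mainly on steroids and related compounds. Aldehyde dehydrogenases oxidise aldehydes to acids, both toxic ones such as acetaldehyde and intermediates of amino acid, fatty acid and retinoid metabolism. Carboxylesterases are serine hydrolases of the endoplasmic reticulum that cleave ester and amide drugs and also acylglycerols. Flavin-containing monooxygenases add oxygen to soft nucleophiles such as amines and sulfides. In the intestine these enzymes are best known from absorptive enterocytes, where they take part in first-pass metabolism of food-borne and drug compounds.

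The mean signal after trimming 2% from each end was 250 on each array. The median signal was 102 and 136 on the conventionalized arrays, against 133 and 86.5 on the germ-free arrays, so it varied within both groups. The SD of the log2 difference between duplicates was 1.05 in the conventionalized and 0.83 in the germ-free group. Across tested probe sets, which are not independent replicates, conventionalized replicate 1 correlated with its duplicate at a Pearson r of 0.779 and with the germ-free arrays at 0.855 and 0.890. Conventionalized replicate 2 correlated with the other arrays at 0.754 to 0.779 and so stood apart. Conventionalized arrays were washed on fluidics station 2 and germ-free arrays on station 1, and the effects of station and group cannot be told apart.

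Most carboxylesterases, 3 Akr1c reductases and Fmo5 had lower signal in conventionalized than in germ-free cells, and 13 of 17 aldehyde dehydrogenases also lay below 0, by smaller amounts at the median. In the comparison over the whole array, limma called 2 members lower, the hydroxysteroid reductase Akr1c14 and the carboxylesterase Ces1f, and 0 higher, each at a Benjamini-Hochberg adjusted p under 0.05. The background was 0.248% of the 12113 genes tested called lower and 0.107% called higher. Unadjusted p was under 0.05 for 10 tested members, all of them lower, against 3.91% of genes tested in that direction. Over all 47 members, including those under the filter, 33 had a log2 difference below 0, against 48.3% of all named genes.

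Separation of the arrays needs no model of the variance. Both conventionalized arrays lay below both germ-free arrays for 18 of the 47 members, where the background over all named genes was 15.4%. They lay above for 4 members, against 16.2% in the background. Members at least 2-fold lower in all 4 pairs of arrays were Akr1c14, Akr1c19, Aldh4a1, Ces1f and Ces2b, 5 of 47 against 1.2% of named genes, and 0 members were 2-fold higher in all pairs, against 0.967%. The carboxylesterases supplied 7 of the 18 lower members, the aldehyde dehydrogenases 6, the aldo-keto reductases 3 and the monooxygenases 2. With 2 arrays against 2, an exact permutation test cannot go below p = 0.333.

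**Figure D1:**
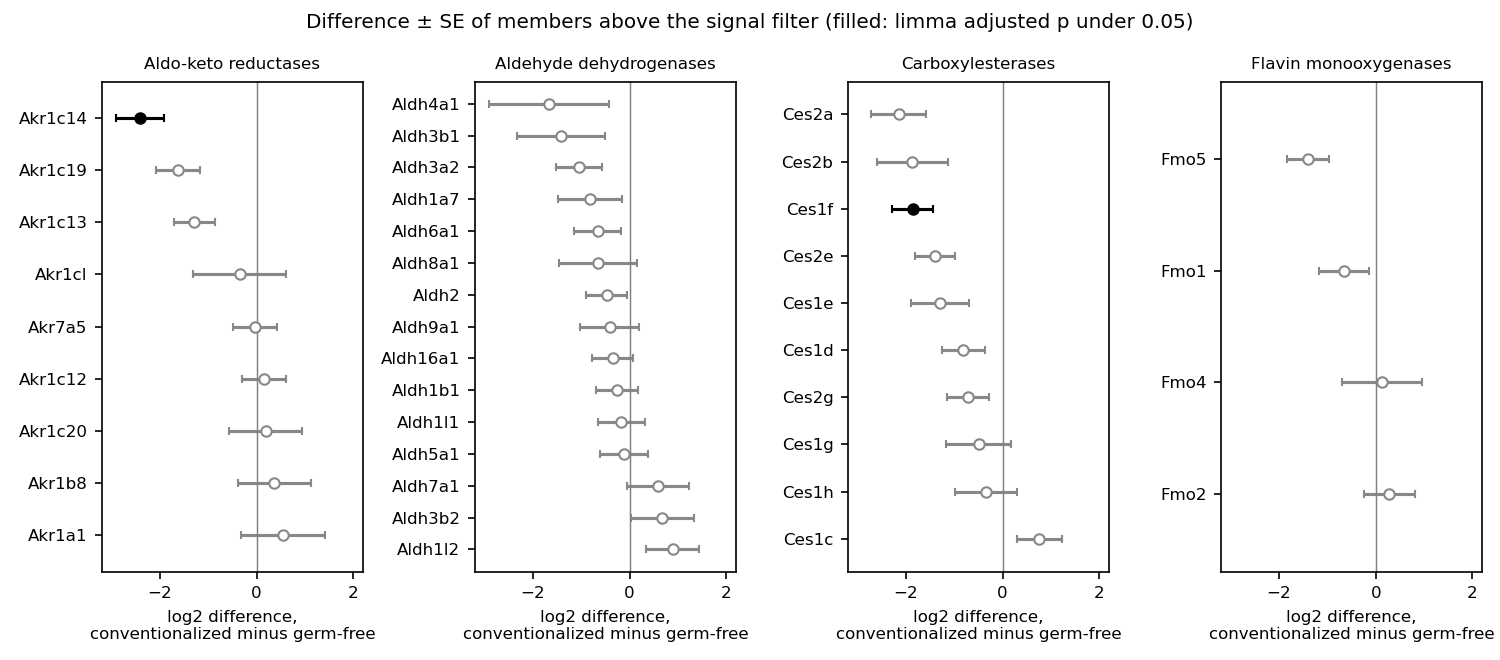
Log2 difference, conventionalized minus germ-free, of the 38 tested members by family on the log2(signal + 32) scale, with bars for the limma standard error (2 arrays in each group) and filled points for calls. Akr1c14 and Ces1f, the called members, lie at -2.41 and -1.86, and carboxylesterases lie mostly below 0.

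Among the aldo-keto reductases, the lower signals were those of Akr1c genes. Akr1c14 (gene identifier 105387), the mouse 3-alpha-hydroxysteroid dehydrogenase, had signals of 168 and 102 in conventionalized cells, against 582 and 1206 in germ-free cells. The groups did not overlap, and each germ-free array stood more than 2-fold above both conventionalized ones. The log2 difference was -2.41 ± 0.51 (SE, n = 2 arrays in each group), 5.32-fold lower, with a limma adjusted p of 0.0014. Its call was lost without germ-free replicate 2, where the difference was -1.91 (limma adjusted p = 0.989), with quantile normalization (limma adjusted p = 0.102), without the variance trend, with a fixed prior and in the fit on the mean of all probe sets of each gene, 5 of 16 alternatives.

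Akr1c19, a reductase that oxidises hydroxysteroids and other alcohols, had the tightest duplicates of the lower members of its family. Its signal was 263 and 289 in conventionalized cells, against 862 and 979 in germ-free cells. The difference of -1.63 ± 0.46 did not pass over the whole array (limma adjusted p = 0.081). It was called in 2 of 16 alternatives. These were the 25% of probe sets with the highest signal (limma adjusted p = 0.0136) and a block of crossed array numbers, chosen after seeing the data. It was not called with quantile normalization (limma adjusted p = 0.236) or median centring (limma adjusted p = 0.362), nor with any 1 array left out. Akr1c13, another hydroxysteroid dehydrogenase, read 1481 and 1428 in conventionalized cells, against 2500 and 5151 in germ-free cells. Here the conventionalized arrays nearly coincided and the germ-free arrays spread over a 2-fold range. Its difference of -1.29 ± 0.43 was not called (limma adjusted p = 0.269).

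The other reductases did not show this separation. Akr1c12, a close paralog of Akr1c13, read 616 and 442 in conventionalized cells, against 429 and 508 in germ-free cells, and the groups overlapped. A further probe set that names both Akr1c12 and Akr1c13, and so stands for neither, read 902 and 790 in conventionalized cells, against 1218 and 1934 in germ-free cells. Akr1c20 differed by 0.19, Akr1cl by -0.35 and Akr1b8, an aldose reductase relative, by 0.37, all with overlapping groups.

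The general-purpose reductases had high signal in both groups. Akr1a1, the aldehyde reductase that mice use in vitamin C synthesis, read 36520 and 45497 in conventionalized cells, against 21267 and 36349 in germ-free cells. The groups separated narrowly, and the difference of 0.55 ± 0.87 was within its standard error and came to -0.69 with quantile normalization. Its other 3 probe sets differed by 0.02, -0.37 and -0.23. Akr7a5, a reductase of succinic semialdehyde, read 3945 and 3549 in conventionalized cells, against 3273 and 4499 in germ-free cells, with the groups overlapping. Akr1b10, Akr1c6, Akr1c18, Akr1c21, Akr1d1 and Akr1e1 lay under the filter, with overlapping groups in each. The family median over all 15 members was -0.04, and it was the same over the 9 tested.

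**Figure D2:**
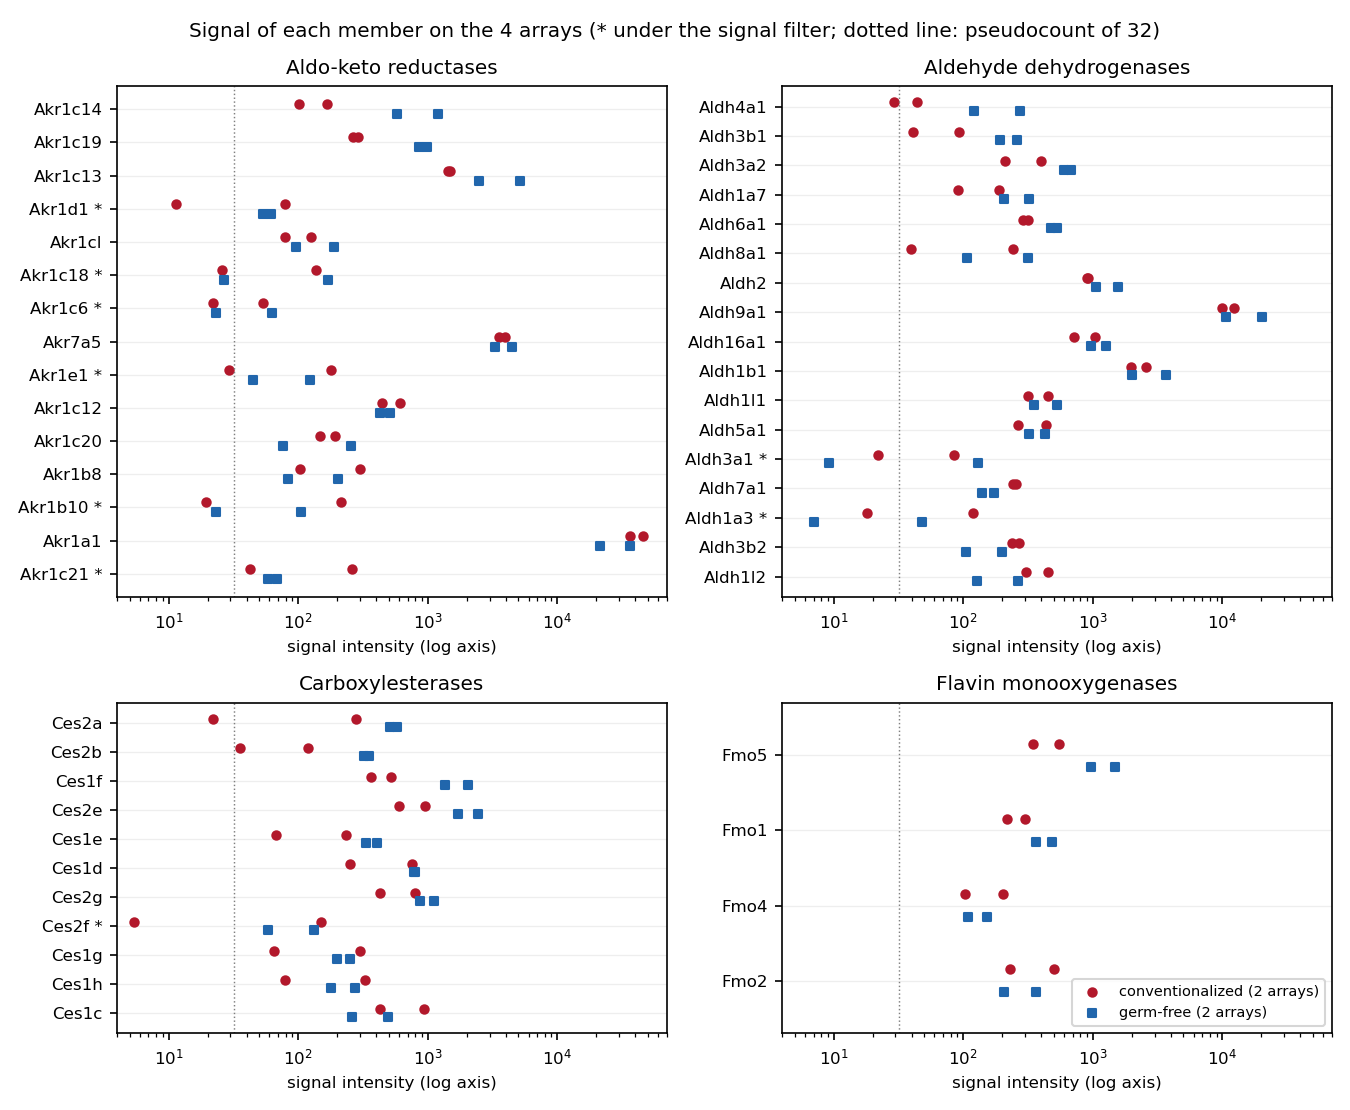
Signal on each array, on a log axis, of every member in 4 panels by family, conventionalized before germ-free. Akr1c14, Akr1c19, Ces1f, Ces2a and Fmo5 show both conventionalized points below both germ-free points, whereas Akr7a5 and Aldh1b1 overlap.

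The Akr1c genes of the array lie side by side on mouse chromosome 13 in the RefSeq annotation of GRCm38.p6, in the order Akr1c14, Akr1c18, Akr1c13, Akr1c19, Akr1c12, Akr1c6, Akr1c20 and Akr1c21, with Akr1e1 after them. The 3 members with separated groups are among the first 4 of this order. Akr1c18, the 20-alpha-hydroxysteroid dehydrogenase, lies between them and was under the filter, at 25.9 and 136 in conventionalized cells, against 170.4 and 26.8 in germ-free cells. The promoters of the 3 lower genes and of Akr1c12 are shown because the genes are neighbours with unlike differences. Each window runs from 250 bases before to 50 after the gene's start, from RefSeq in GRCm38.p6: chr13:4059341-4059640 (plus strand) for Akr1c14, chr13:4190937-4191236 (plus strand) for Akr1c13, chr13:4233490-4233789 (plus strand) for Akr1c19 and chr13:4279350-4279649 (minus strand) for Akr1c12. Sequences run 5′ to 3′ on the gene's strand, and capitals mark the 6 letters CATTAG, a repeat chosen after the sequences were read.
Akr1c14: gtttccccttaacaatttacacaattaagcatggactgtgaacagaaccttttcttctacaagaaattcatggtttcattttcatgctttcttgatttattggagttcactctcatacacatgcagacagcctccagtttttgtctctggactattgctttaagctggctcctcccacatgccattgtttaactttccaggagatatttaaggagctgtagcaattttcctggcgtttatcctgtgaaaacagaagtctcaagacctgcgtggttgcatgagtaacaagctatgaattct
Akr1c13: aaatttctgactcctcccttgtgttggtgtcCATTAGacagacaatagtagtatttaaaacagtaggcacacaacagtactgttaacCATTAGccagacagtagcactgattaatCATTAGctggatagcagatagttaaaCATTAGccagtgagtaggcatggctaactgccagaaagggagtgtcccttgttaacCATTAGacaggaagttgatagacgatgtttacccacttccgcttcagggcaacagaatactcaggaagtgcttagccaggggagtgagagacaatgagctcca
Akr1c19: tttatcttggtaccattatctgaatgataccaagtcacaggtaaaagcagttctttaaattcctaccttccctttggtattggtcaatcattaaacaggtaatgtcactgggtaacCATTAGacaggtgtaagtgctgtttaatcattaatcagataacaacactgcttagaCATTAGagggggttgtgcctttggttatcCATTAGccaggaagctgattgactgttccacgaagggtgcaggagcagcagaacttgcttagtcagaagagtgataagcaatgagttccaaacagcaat
Akr1c12: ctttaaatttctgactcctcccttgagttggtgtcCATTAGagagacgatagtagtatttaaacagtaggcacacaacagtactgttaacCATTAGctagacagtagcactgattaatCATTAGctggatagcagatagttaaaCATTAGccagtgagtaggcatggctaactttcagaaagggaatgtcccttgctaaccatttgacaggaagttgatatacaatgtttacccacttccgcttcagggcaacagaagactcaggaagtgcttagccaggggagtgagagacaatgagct

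CATTAG stood 5 times in the Akr1c13 window, 4 times in that of Akr1c12, 3 times in that of Akr1c19 and 0 times in that of Akr1c14, the gene with the largest difference. Searched on both strands, it occurred at least once in 7.36% of 32851 promoter windows of the same length, and at least 4 times in 3 windows, of which Akr1c12 and Akr1c13 are a pair. The Akr1c13 and Akr1c12 windows were identical at 284 of 296 aligned bases, or 95.9%, although the probe sets naming each gene alone gave -1.29 and 0.15. The Akr1c14 window was 59.2% to 60.4% identical to the other 3. The letters TGACNNNGC, the core of the antioxidant response element, stood in 12.4% of all windows and in those of 3 of the 36 members with a window, Akr1c19 among them. A member counted if any of its windows matched, whereas the background is a share of windows, so the units differ. A match of letters is a description of the window and shows no binding.

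No aldehyde dehydrogenase was called. Over all 17 members the median log2 difference was -0.35, and over the 15 tested it was -0.41. Both conventionalized arrays lay below both germ-free arrays for 6 of the 17 members, against 15.4% of all named genes. They lay above for 3 of the 17, near the 16.2% of all named genes. Of the 15, Aldh3a2 alone had an unadjusted p under 0.05, against 3.91% of genes tested in the lower direction.

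Aldh3a2, Aldh3b1, Aldh2 and Aldh1b1, enzymes for long-chain or toxic aldehydes, had differences below 0, and none was called. Aldh3b2, of the same branch as Aldh3b1, lay above 0, at 0.68. Aldh3a2, the fatty aldehyde dehydrogenase, read 399 and 210.0 in conventionalized cells, against 680.4 and 596 in germ-free cells. The groups were apart, with a difference of -1.05 ± 0.48 (limma adjusted p = 0.836) that was -0.64 without conventionalized replicate 2. Aldh3b1, which oxidises medium- and long-chain aldehydes, read 92.6 and 41.3 in conventionalized cells, against 259 and 192 in germ-free cells. These signals are near the filter on the mean of all 4 arrays, which Aldh3b1 passed through its germ-free signal. Its mean was 66.95 in conventionalized and 225.75 in germ-free cells. The difference of -1.42 ± 0.91 had a limma adjusted p of 0.999. Aldh2, the mitochondrial acetaldehyde dehydrogenase, read 918 and 909 in conventionalized cells, against 1052 and 1560 in germ-free cells, a narrow separation of -0.47 ± 0.42. Aldh1b1, its mitochondrial relative, read 2562 and 1973 in conventionalized cells, against 2017 and 3638 in germ-free cells, and the groups overlapped.

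Enzymes of amino acid and one-carbon metabolism also differed among themselves. Aldh4a1, which makes glutamate in proline breakdown, read 44.2 and 29.3 in conventionalized cells, against 275 and 122 in germ-free cells. Every germ-free signal was more than 2-fold above every conventionalized one, yet at this low signal the difference was -1.67 ± 1.24 (limma adjusted p = 0.999). Aldh4a1 too passed the filter through its germ-free signal, with a mean of 36.75 in conventionalized and 198.5 in germ-free cells. Aldh1l2, the mitochondrial 10-formyltetrahydrofolate dehydrogenase, read 307 and 450 in conventionalized cells, against 264 and 129 in germ-free cells, a difference of 0.89 ± 0.55 in the other direction. Aldh6a1, of valine breakdown, differed by -0.66 with separated groups, and Aldh5a1, of GABA breakdown, by -0.12 with overlapping ones.

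Of the remaining members, Aldh9a1, an enzyme of carnitine synthesis, had signals of 12181 and 9991 in conventionalized cells, against 10677 and 20254 in germ-free cells, with the groups overlapping. Aldh16a1 read 1040 and 710 in conventionalized cells, against 966 and 1265 in germ-free cells, again overlapping. The second probe set of each gene had separated groups, lower by -0.69 for Aldh9a1 and -0.80 for Aldh16a1, and neither was called. Aldh1a7, a close relative of Aldh1a1, differed by -0.82 with separated groups. Aldh3b2 at 0.68 and Aldh7a1, of lysine breakdown, at 0.59 were the other two with both conventionalized arrays on top. Aldh1l1 at -0.17 and Aldh8a1 at -0.65 overlapped, and Aldh1a3 and Aldh3a1 were under the filter. Of the genes left out by the rule, Aldh1a1, a retinaldehyde dehydrogenase, differed by -1.57 (limma adjusted p = 0.080) and Aldh18a1, of proline synthesis, by -0.98.

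Carboxylesterases had the lowest family median, -0.81 over all 11 members and -1.05 over the 10 tested, beside 0.00 over all genes tested. The groups were apart in 7 of the 11 members, all lower, against 15.4% of all named genes. Unadjusted p was under 0.05 for 5 of the 10 tested members, all of them lower, against 3.91% of genes tested in that direction. The Ces1 branch, with 6 members, had a median of -0.66, and the Ces2 branch, with 5, had one of -1.40. No test of the difference between branches or families was made.

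Ces1f (gene identifier 234564), a triacylglycerol hydrolase, read 365 and 524 in conventionalized cells, against 1363 and 2056 in germ-free cells. The lower germ-free signal was more than 2-fold above the higher conventionalized one. The difference was -1.86 ± 0.43 (limma adjusted p = 0.0067), or 3.63-fold lower. The call was lost with any of conventionalized replicate 1 (-1.62), germ-free replicate 1 (-2.15) or germ-free replicate 2 (-1.57) left out, and with quantile normalization, median centring or the array number as a block (limma adjusted p = 0.133). It was also lost without the variance trend, with a fixed prior and in the fit on gene means, which makes 9 of 15 alternatives. Its probe set carries the suffix _s_at, which marks probes that can bind related transcripts, so part of the signal may belong to other Ces1 genes.

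The other Ces1 genes differed less. Ces1e, which binds beta-glucuronidase in the endoplasmic reticulum, read 67.9 and 234 in conventionalized cells, against 335 and 403 in germ-free cells, a difference of -1.29 ± 0.60 (limma adjusted p = 0.860). Ces1d, another triacylglycerol hydrolase, read 751 and 251 in conventionalized cells, against 786 and 804 in germ-free cells. The groups were narrowly apart, and the difference of -0.81 was -0.08 without conventionalized replicate 2. A second tested probe set of Ces1d read 185 and 306 in conventionalized cells, against 434 and 479 in germ-free cells, a difference of -0.85. Ces1c, the plasma carboxylesterase, was the sole tested member of the family above 0, at 0.76 with overlapping groups. Ces1g at -0.50 and Ces1h at -0.34 overlapped too.

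All 4 tested Ces2 genes had both conventionalized arrays below both germ-free arrays, as had 16.1% of genes tested. The filter was on the mean of all 4 arrays, and Ces2b passed it through its germ-free signal. Its mean was 77.35 in conventionalized and 337.8 in germ-free cells. The untested Ces2f overlapped, at 148.8 and 5.4 in conventionalized cells, against 131.8 and 58.6 in germ-free cells. Ces2a, a hydrolase of esters and acylglycerols, read 278 and 22.0 in conventionalized cells, against 509 and 580 in germ-free cells. The difference of -2.15 ± 0.58 missed the threshold (limma adjusted p = 0.0529). Its size rests on conventionalized replicate 2, since it was -0.89 without that array and -3.41, and called, without conventionalized replicate 1. Ces2b read 119 and 35.9 in conventionalized cells, against 352 and 324 in germ-free cells, a difference of -1.87 ± 0.73 (limma adjusted p = 0.577).

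Ces2e, another carboxylesterase of this branch, read 600 and 958 in conventionalized cells, against 1721 and 2453 in germ-free cells, with a difference of -1.40 ± 0.42 (limma adjusted p = 0.131). With 1 array left out it ran from -1.72 to -1.08. Ces2g read 802 and 431 in conventionalized cells, against 874 and 1116 in germ-free cells, a difference of -0.72 ± 0.43. With 1 array left out this ran from -1.14 to -0.29, the last without conventionalized replicate 2. Ces2f lay under the filter, and a probe set that names both Ces3a and Ces3b, also under the filter, read 61.9 and 44.8 in conventionalized cells, against 133 and 98.3 in germ-free cells.

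**Figure D3:**
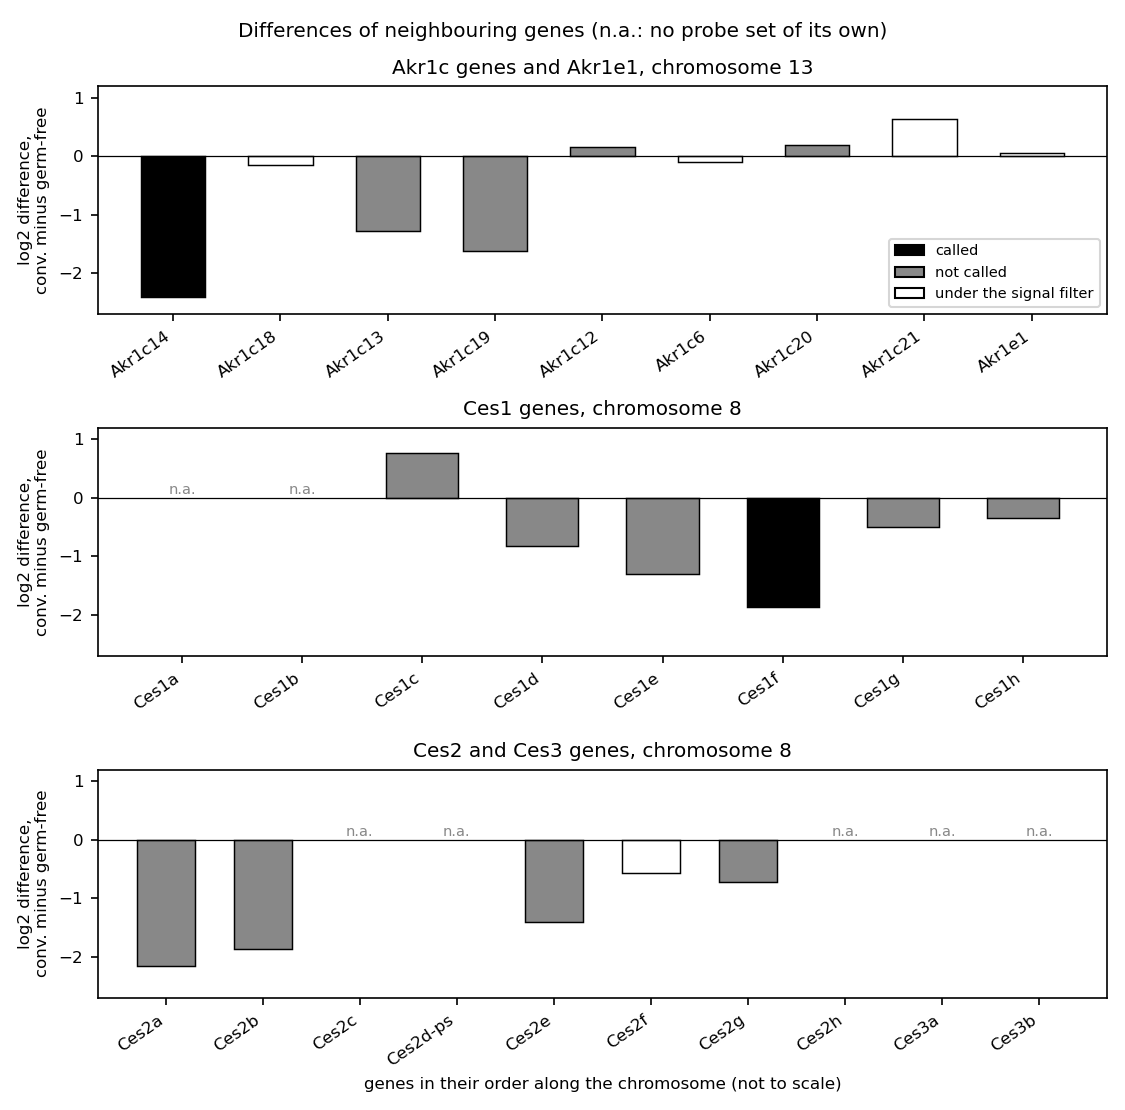
Log2 difference, conventionalized minus germ-free, of genes in their order along the Akr1c, Ces1, and Ces2 and Ces3 clusters (RefSeq order in GRCm38.p6), with black bars for called, grey for not called and white for under-filter genes. In the Ces2 cluster the values run from -2.15 for Ces2a to -0.57 for Ces2f, and the Akr1c cluster holds values on both sides of 0.

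Ces1 and Ces2 genes form clusters on chromosome 8 in GRCm38.p6. In the Ces2 cluster the order is Ces2a, Ces2b, Ces2c, Ces2d-ps, Ces2e, Ces2f, Ces2g and Ces2h, and then Ces3a and Ces3b. No probe set names Ces2c, Ces2h, Ces1a or Ces1b alone. The RefSeq promoter windows of Ces2a (chr8:104733753-104734052, plus strand) and Ces2e (chr8:104926010-104926309, plus strand) are shown because both genes were lower on both conventionalized arrays. Capitals mark the runs of 12 bases or more that also occur in the other window, at any position.
Ces2a: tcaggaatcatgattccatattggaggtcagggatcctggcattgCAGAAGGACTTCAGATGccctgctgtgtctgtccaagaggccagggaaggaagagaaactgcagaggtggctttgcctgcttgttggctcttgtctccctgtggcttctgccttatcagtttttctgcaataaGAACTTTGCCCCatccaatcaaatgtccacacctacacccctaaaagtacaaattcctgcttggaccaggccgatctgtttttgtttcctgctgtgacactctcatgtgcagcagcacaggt
Ces2e: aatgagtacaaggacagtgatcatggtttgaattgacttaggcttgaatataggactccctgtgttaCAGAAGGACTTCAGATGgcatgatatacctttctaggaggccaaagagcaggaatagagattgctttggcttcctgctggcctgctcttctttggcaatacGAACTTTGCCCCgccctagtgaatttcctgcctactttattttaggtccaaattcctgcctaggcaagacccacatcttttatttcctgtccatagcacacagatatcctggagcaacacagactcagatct

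The windows were identical at 183 of 265 aligned bases, or 69.1%, and shared runs of 17 and 12 bases. The nuclear receptor half-site AGGTCA, searched on both strands, stood in the Ces2a window, in 10 of the 36 members with a window and in 16.3% of all windows. Members were again counted by gene and the background by window. No match of these letters was found in the Ces2e window.

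Of the monooxygenases, Fmo5 was lower on both conventionalized arrays at every one of its probe sets. Fmo5, a member of the family that oxidises ketones to esters, read 344 and 547 in conventionalized cells, against 974 and 1482 in germ-free cells. The groups did not overlap, at -1.40 ± 0.43, but the gene was not called (limma adjusted p = 0.176). Its other 2 probe sets read 133 and 31.5, and 176 and 154, in conventionalized cells, against 267 and 293, and 548 and 282, in germ-free cells. They differed by -1.61 and -1.12, also with separated groups.

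The other 3 genes lie together on chromosome 1, whereas Fmo5 lies on chromosome 3. Fmo1, an oxidase of drug amines, read 216 and 301 in conventionalized cells, against 481 and 367 in germ-free cells, at -0.65 ± 0.51. Fmo2, best known from lung, read 229 and 500 in conventionalized cells, against 362 and 208 in germ-free cells, and Fmo4 read 203 and 103 in conventionalized cells, against 154 and 109 in germ-free cells. Both overlapped, with differences of 0.28 and 0.14. The family median was -0.26 over 4 members, and it ran from -0.55 to -0.07 with 1 array left out.

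**Figure D4:**
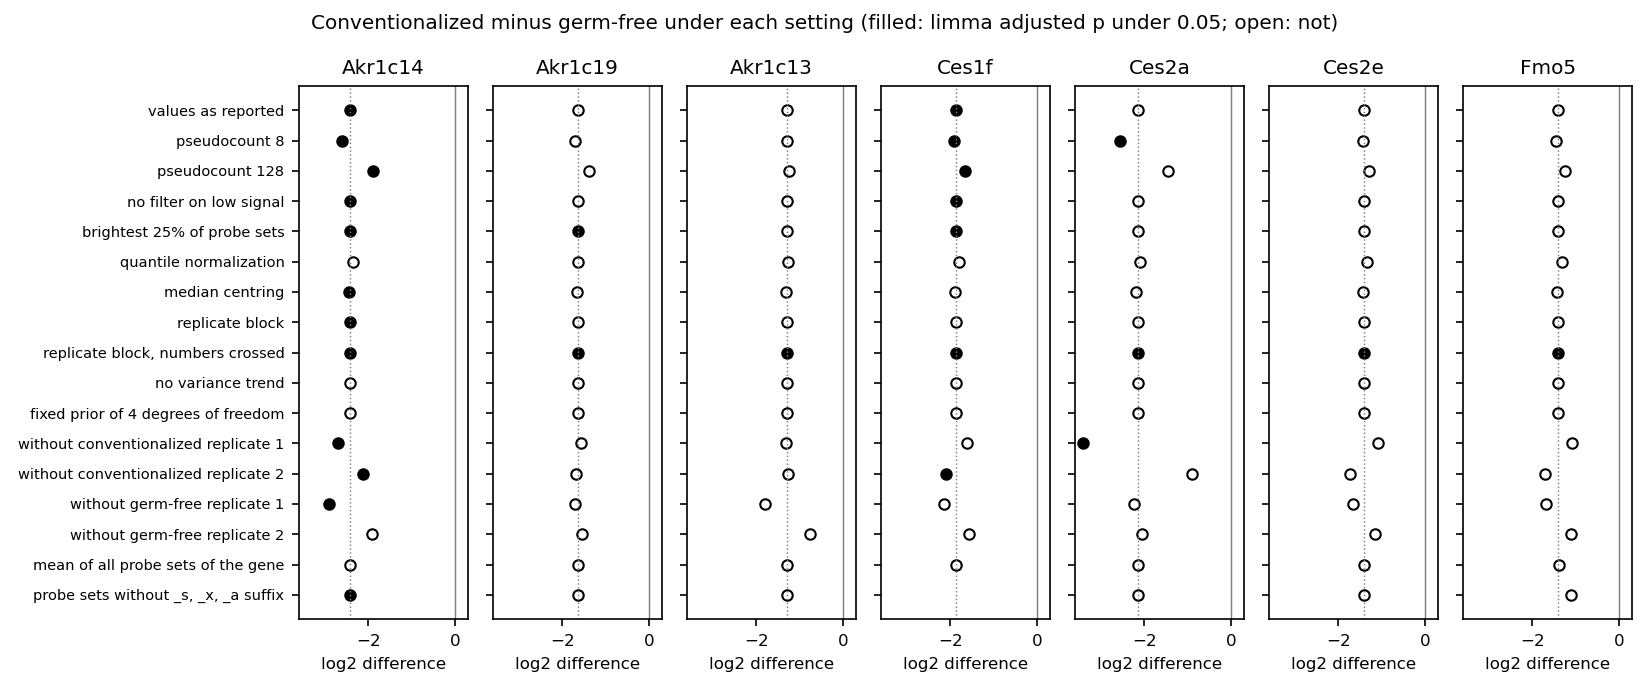
Log2 difference, conventionalized minus germ-free, of 7 members with separated groups, under each way of processing the arrays and with each array left out, filled where limma adjusted p was under 0.05. Akr1c14 stays between -2.92 and -1.90 and Ces1f between -2.15 and -1.57, while Ces2a spreads from -3.41 to -0.89.

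Genes that work beside these families were followed as a list of 94, of which 87 were on the array and 69 tested. Limma called 3 of them lower and 0 higher. Adh1, the class I alcohol dehydrogenase that makes aldehydes from ethanol and retinol, read 2513 and 2506 in conventionalized cells, against 9215 and 14588 in germ-free cells. It fell by 2.19 on the log2 scale (limma adjusted p = 0.0044). Maob, the mitochondrial amine oxidase that makes aldehydes from amines, read 229 and 284 in conventionalized cells, against 906 and 1207 in germ-free cells. It fell by 1.91 (limma adjusted p = 0.014). Rdh7, a retinol and hydroxysteroid dehydrogenase, was the third. All 3 had every germ-free signal more than 2-fold above every conventionalized one.

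The medians of these groups differed in size. The 27 tested alcohol dehydrogenases, retinol dehydrogenases and short-chain reductases had a median of -0.34, and the 6 other aldehyde and amine oxidases one of -0.87. Aoc1, the diamine oxidase of the gut, read 610 and 1201 in conventionalized cells, against 2519 and 2378 in germ-free cells, and was not called (limma adjusted p = 0.078). Xdh, also of this list, went the other way, at 701 and 836 in conventionalized cells, against 184 and 544 in germ-free cells. It was the 1 of these 6 above 0, by 1.18, and was not called (limma adjusted p = 0.587). The 13 other esterases and hydrolases had a median of -0.38, with 0 called; Pnliprp2, a lipase, was at -0.10 and Ephx2, the soluble epoxide hydrolase, at -0.47. For the 4 redox partners it was -0.99, with Cyb5a at -0.11 and Cyb5r3 at -0.94.

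Cofactor supply and regulators had medians near 0 but single genes on both sides. The 6 genes of NADPH supply had a median of -0.04, with the transketolase Tkt at 0.07 and Pgd, of the pentose phosphate pathway, at 0.12. The 13 receptors and cofactors that govern such enzymes had a median of -0.02. Hnf4a, a nuclear receptor of gut epithelium, differed by 0.08, and Nfe2l2, the factor of the antioxidant response, by -0.28. Of these 13, 3 had separated groups lower and 2 higher. Ahr, the receptor for aromatic ligands, at -1.31, read 483 and 108 in conventionalized cells, against 579 and 687 in germ-free cells. Ppara, a fatty acid receptor, at -1.49, read 141 and 35.2 in conventionalized cells, against 274 and 266 in germ-free cells. In both, conventionalized replicate 2 was the lower array, and Ppara passed the filter through its germ-free signal. Cebpa, at -0.13, was the third lower gene. The higher ones were the retinoid X receptor Rxrb at 0.63 and the receptor Nr1h4 at 0.40. The NADPH-producing enzymes Idh1 and Me1, also with separated groups, stood at -0.81 and -0.74. None of these was called.

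Markers of cell types gave measured values beside these results. Paneth markers were present on all arrays: 11 of 13 passed the filter, Lyz1, the Paneth lysozyme, read 80185 and 249594 in conventionalized cells, against 24112 and 51494 in germ-free cells, and Defa3 and Kit were under the filter. All 11 that passed were above 0, with a median of 1.96, and Reg3g at 4.90 and Mptx1 at 2.74 were called. Under the filter, Kit lay the other way with separated groups, at 91.7 and 35.8 in conventionalized cells, against 175 and 111 in germ-free cells. Defa3 overlapped, at 0.31. Absorptive enterocyte markers were present too: all 24 on the array passed, 21 were below 0, and their median was -0.63. The summed enterocyte marker signal was 141404 and 309846 in conventionalized cells, against 142938 and 254870 in germ-free cells. Fabp2, an intestinal fatty acid binding protein and 1 of the 3 markers above 0, made up a large part of it, and the other 23 summed to 89876 and 167288 in conventionalized cells, against 121956 and 209618 in germ-free cells.

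The enterocyte list held 1 called gene, the apolipoprotein Apoc3, which was lower. Goblet cell markers had a median of 0.74 over 10 genes, 8 above 0 and 2 below. Retnlb was called higher, at 3.53, and Clca1 lay at -1.29, not called. Enteroendocrine markers had a median of -0.53 over 12 of 14. Smooth muscle markers had a median of -0.61 over 4 of 6, and 2 endothelial and blood markers of 4, Kdr at -1.81 and Cdh5 at -0.61, passed the filter. Plasma and B cell markers had a median of 0.93 over 3 of 4, with the immunoglobulin A gene Igha called, 5.42-fold higher. The medians were 0.54 for macrophage and granulocyte, 0.21 for tuft, 0.02 for crypt base stem, -0.24 for fibroblast, -0.30 for hepatocyte and -0.42 for exocrine pancreas markers, with 0 called in these. The part of captured enterocyte or other RNA in the members' differences was not tested.

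**Figure D5:**
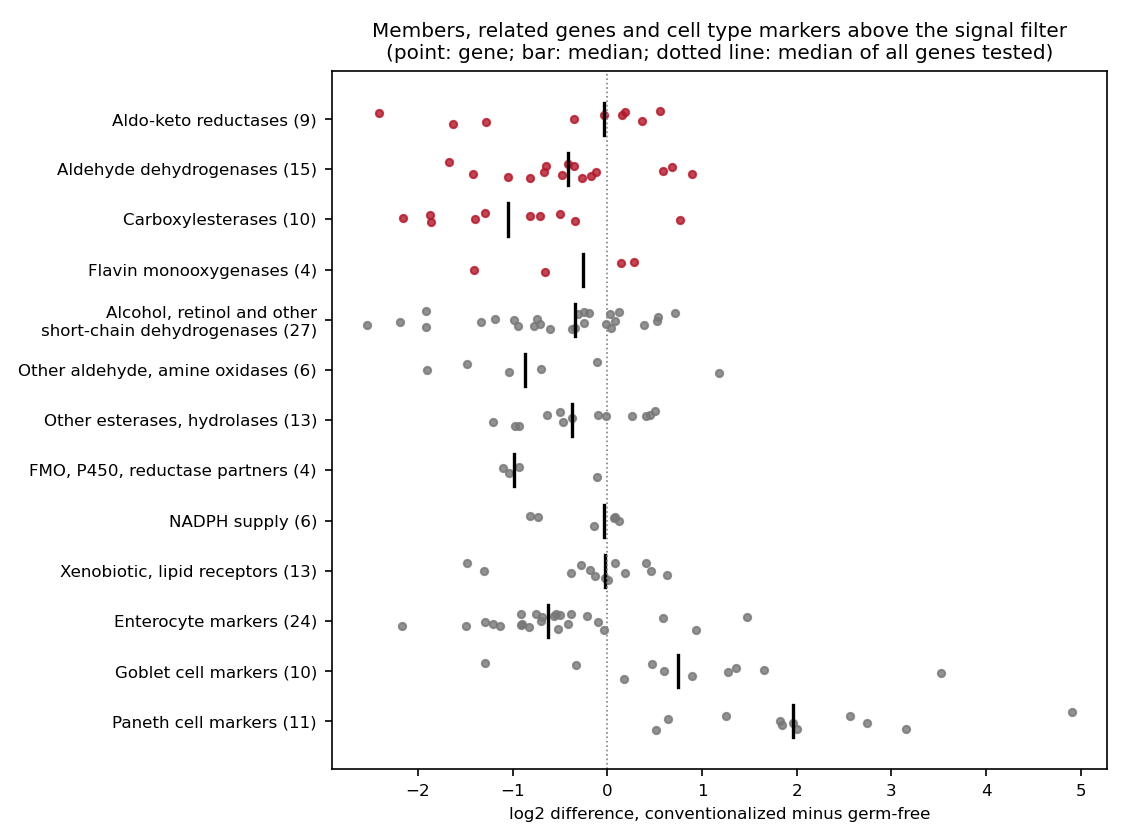
Median log2 difference, conventionalized minus germ-free, of the 4 families, the genes that work beside them and the enterocyte, goblet and Paneth markers, as a bar, with each tested gene as a point. Carboxylesterases have a median of -1.05, absorptive enterocyte markers -0.63 and Paneth markers 1.96.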

How the data were processed

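Signals of 45101 probe sets on 4 arrays (2 conventionalized, 2 germ-free) were used as deposited, 1 intensity per probe set on a linear scale. The authors had scaled them, since the trimmed means were equal. The software behind these intensities is not given in the sources used here. Deposited instrument files were read for batches only. Per the labels' protocols, duplicate 10 ng aliquots of each pooled RNA were amplified. A value of 32 was added to each intensity before taking log2, which understates differences of dim probe sets. The 64 control probe sets and those with a mean signal up to the median of 113.9 were left out, leaving 22491. The test of conventionalized minus germ-free was that of limma 3.58.1 (R 4.3.3; lmFit, and eBayes with a variance trend), with Benjamini-Hochberg adjustment over all 22491 probe sets and calls at 0.05. The prior degrees of freedom came out infinite, so standard errors are those of probe sets of like signal. The script was tested on simulated data. Sequence windows were aligned with Biopython 1.88. The number of arrays limits the precision.

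Symbols came from the platform annotation: 34945 probe sets named 1 gene, 932 several, which name none here, and 9211 none. All 47 members had their gene identifier in the RefSeq table of GRCm38.p6. The deposited values name no build. The text describes called members and, per family, the 4 with the highest mean signal and up to 4 with the largest differences among those with separated groups. Other members get a difference or a name. Genes outside the families are the called ones of a list, otherwise its 2 brightest. Probe sets, genes and values added beside these, such as those of Akr1c12, Akr1c18, Ces1c, Ces1e, Aldh18a1, Aoc1, Xdh, Ahr and Ppara, were chosen after their values were seen. Members and lists were chosen with earlier results of these data known. Alternatives were no filter, a filter at the brightest 25%, pseudocounts of 8 and 128, quantile normalization, the array number as a block, arrays centred on their medians, no variance trend, a fixed prior of 4 degrees of freedom, other rules for the probe set of a gene, and each array left out.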

Additional observations from a re-analysis of the deposited data

How the results depend on the processing

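Members called higher stayed at 0 under every setting. Members called lower, 2 as reported, were 3 in the brightest 25% of probe sets and also with the smaller pseudocount (8), 0 with quantile normalization, 1 with median centring, 0 without a variance trend or with a fixed prior, 0 with the mean of all probe sets of a gene, 1 without probe sets of suffix _s_at, _x_at or _a_at, and 0 to 2 with 1 array left out. Over the whole table, the 27 higher and 48 lower probe sets became 14 and 19 with quantile normalization and 6 and 21 with median centring. Limma called 0 and 0 when the variance trend was dropped (975 unadjusted p under 0.05) and when the prior was fixed at 4 degrees of freedom (830). With 1 array left out, the higher count ran from 14 to 34 and the lower from 7 to 181. The split was 32 higher and 181 lower when conventionalized replicate 1 was dropped, 14 and 33 for conventionalized replicate 2, 22 and 24 for germ-free replicate 1, and 34 and 7 for germ-free replicate 2. Same-numbered arrays deviated from their group means with r = -0.13. This single value, over probe sets that are not independent, cannot settle whether the numbers pair arrays. With the replicate block 13 higher and 17 lower probe sets and 1 member were called. With the numbers crossed, chosen after seeing the data, 71 higher and 157 lower probe sets and 7 members lower were called. Family medians moved as follows. The aldo-keto reductase median of -0.04 was -0.66 in the brightest 25% and ran from -0.51 to 0.038 with 1 array left out. The aldehyde dehydrogenase median of -0.41 was -0.56 by the mean of all probe sets and ran from -0.54 to -0.20. The carboxylesterase median of -1.05 was -0.79 with the larger pseudocount, -0.81 without a filter and -1.29 in the brightest 25%. The monooxygenase median of -0.26 was -0.65 in the brightest 25%, -0.60 without suffixed probe sets, and ran from -0.55 to -0.07. Of the values of single members under these settings, 14 lost and 8 gained a call, and 12 with no call moved, Akr1a1 to -0.69 with quantile normalization among them. The cause of these changes was not tested. At low signal, as for Aldh4a1, standard errors above 1 limit what the arrays can show.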
